A study of Mus musculus with 17 samples.

Results

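The genes described here are 10 members of the FOS, JUN and EGR families of transcription factors, Fos, Fosb, Fosl2, Jun, Junb, Jund, Egr1, Egr2, Egr3 and Egr4, chosen by name out of 38355 Ensembl identifiers. They were followed in all 17 libraries of polyA RNA from hand-dissected hippocampus of untreated wild type C57BL/6J mice. The single-end libraries came from 5 samples at 3 months (3M) and 6 at 24 months (24M), and the paired-end libraries from 3 samples at 3M and 3 at 29 months (29M). Samples at 24M and 29M were compared with 3M samples sequenced the same way, to ask what changes with age, and age and library type vary together between both comparisons. The 24M replicates 1 and 4 differed by less than counting noise and were counted as 1 sample, so 24M has n = 5. The labels do not say which libraries came from separate animals, so p-values measure the spread between these samples, which may be technical. All 10 genes were counted in every library and all passed edgeR's default filter on low counts, Egr2 with few counts.

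Gene counts per library ranged from 9213474 to 28438296. Markers of hippocampal neurons were present in all libraries, with none of the 8 at 0 and a summed level of 1026 to 1476 CPM (counts relative to the library total, after TMM normalization, which corrects for library composition). In bulk tissue, fewer cells of a type and less RNA per cell cannot be told apart. The single-end 3M replicate 4 stood apart in markers of the striatum, whose 10 genes summed to 714 CPM there, while the other 4 single-end 3M libraries held 231.2 to 294.2 CPM, the 24M libraries 247.7 to 276.2, the paired-end 3M libraries 256.7 to 278 and the 29M libraries 254.8 to 285.9. All 10 of these markers were highest in that library and none was at 0 in any library. The members' calls at 24M are therefore also given without it.

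FOS and JUN proteins pair through leucine zippers to form AP-1, a dimer that binds DNA, and JUN proteins can also pair with each other. EGR proteins bind GC-rich DNA through zinc fingers. In hippocampal neurons many of these genes are immediate early genes: their transcription starts within minutes of synaptic activity, through MAP kinases, serum response factor (SRF) and CREB, and needs no new protein. Their RNA is short-lived, and handling, novelty and seizures are known to induce it.

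To show where some of the members' promoters carry the letters of CREB and SRF sites, upstream stretches are printed from RefSeq (GRCm38.p6), which gave a window of 250 bases before to 50 after a start site for 8 of the 10 genes. Each stretch is 150 bases long and ends 1 base before the start site, 5′ to 3′ on the strand of the gene. Capitals mark TGACG (the core of a CREB site, or CGTCA on the other strand), TATAAA, and the CArG box bound by SRF, which is given by its name. Fos, Junb, Egr2 and Egr4 are shown because they had large differences or spread, and Jun because its log2 fold changes were near 0. Egr1 and Egr3 had no window.
Fos, chr12:85473740-85473889, plus strand: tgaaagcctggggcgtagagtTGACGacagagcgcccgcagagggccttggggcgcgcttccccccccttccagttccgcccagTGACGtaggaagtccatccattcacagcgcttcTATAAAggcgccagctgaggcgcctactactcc
Junb, chr8:84978749-84978898, minus strand: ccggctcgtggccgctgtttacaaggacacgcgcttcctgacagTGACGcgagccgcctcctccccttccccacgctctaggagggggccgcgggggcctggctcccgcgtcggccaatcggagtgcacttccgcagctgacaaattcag
Egr2, chr10:67537719-67537868, plus strand: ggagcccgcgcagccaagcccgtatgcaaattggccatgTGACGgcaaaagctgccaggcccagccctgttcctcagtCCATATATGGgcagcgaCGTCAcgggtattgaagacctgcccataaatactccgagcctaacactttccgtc
Egr4, chr6:85513590-85513739, minus strand: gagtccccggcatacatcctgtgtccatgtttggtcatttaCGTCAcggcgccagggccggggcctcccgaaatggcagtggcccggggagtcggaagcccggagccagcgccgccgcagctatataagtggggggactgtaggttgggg
Jun, chr4:95052223-95052372, minus strand: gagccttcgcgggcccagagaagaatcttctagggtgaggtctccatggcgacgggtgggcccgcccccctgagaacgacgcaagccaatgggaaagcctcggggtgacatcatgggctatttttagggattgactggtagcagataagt
The Fos stretch holds TGACG at positions -129 to -125 and -66 to -62 from the start site, and TATAAA at -33 to -28. In the Egr2 stretch a CArG box lies at -72 to -63, between TGACG at -111 to -107 and CGTCA at -55 to -51. These positions for Egr2 are from 1 of its 5 windows, while the other genes had 1 window each. A gene was counted where any of its windows held a motif, whereas the shares are per window. The start site of the Jund window follows position 70697738, upstream of the gene start used here, 70698949. TGACG or its reverse stood in the windows of 5 of the 8 genes (Fos, Fosb, Junb, Egr2 and Egr4) and in 20.8% of all 32817 windows, both strands searched. A CArG box stood in 1 of the 8 (Egr2) and in 1.63% of all windows, and TATAAA in 2 of the 8 (Fos and Junb, in Junb from position 1 on, outside the stretch) and in 13.6%. The EGR motif GCGNGGGCG stood in 2 of the 8 (Fosb and Fosl2) and in 5.56% of all windows. Neither the full CREB site TGACGTCA, which holds TGACG and stood in 1.79% of all windows, nor the AP-1 motif TGANTCA, in 7.81%, was found in any of the 8. The Jun stretch held no exact match to these motifs. Only exact letters within the windows were searched, so sites that differ by a base or lie outside the windows were missed. A match describes letters and is no sign that a factor binds there.

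Per kilobase of exon, the single-end 3M means were 69.5 CPM for Jund, 37.3 for Egr1, 32.7 for Jun, 23.8 for Junb, 13.3 for Egr4, 10.5 for Egr3, 7.13 for Fosl2, 6.76 for Fos, 1.26 for Fosb and 0.901 for Egr2. The paired-end 3M means were 59.1 CPM per kilobase for Jund, 33.9 for Jun and 21.4 for Egr1, then 16.9 for Junb, 10 for Egr3, 7.82 for Egr4, 5.89 for Fosl2, 1.89 for Fos, 0.877 for Fosb and 0.33 for Egr2. Jund was thus the highest and Egr2 the lowest in both sets of 3M libraries, and 9 of the 10 members, all but Jun, had lower means in the paired-end set, a difference between library types that was not tested.

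Fos (ENSMUSG00000021250, GRCm38 chromosome 12, 85473890-85477273) encodes the partner that gives AP-1 its best-known activity-dependent form. Its level in the single-end 3M libraries was 4.09, 4.73, 12.8, 36.5 and 21.4 CPM in replicates 1 to 5, and the 24M samples held 3.51, 4.28 and 6.05 CPM (lowest, median and highest). The paired-end 3M libraries held 3.65, 7.33 and 2.34 CPM and the 29M libraries 5.21, 6.28 and 11.3 CPM. Only 3 of the 5 single-end 3M samples lay above all 24M samples, the other 2 lay within their range, and the paired-end groups overlapped. The mean was 15.9 ± 13.5 CPM (SD, n = 5) at 3M and 4.76 ± 1.09 (n = 5) at 24M. On the log2 scale the change was -1.74 ± 0.51 (SE), which missed the threshold (edgeR, adjusted p = 0.0613, 95% interval -2.85 to -0.63). At 29M the mean was 7.59 ± 3.23 CPM against 4.44 ± 2.59 (n = 3 each), or 0.73 ± 0.34 on the log2 scale, with an adjusted p of 0.291. The change was 1.35 without paired-end 3M replicate 2 (edgeR, adjusted p = 0.057), 0.45 without 3M replicate 3 and 0.31 without 29M replicate 3.

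Fosb (ENSMUSG00000003545, chromosome 7, 19302696-19310051), whose truncated product ΔFosB accumulates with repeated activity, lay at 6.05, 6.75, 8.27, 10.8 and 7.46 CPM in the single-end 3M libraries and at 4.19, 6.50 and 7.02 CPM (lowest, median and highest) in the 24M samples. Paired-end 3M libraries held 5.94, 6.35 and 4.14 CPM and 29M libraries 7.99, 6.37 and 6.68 CPM. The single-end groups overlapped, and all 29M samples lay above all paired-end 3M samples, the nearest by a narrow margin. The log2 fold change was -0.34 ± 0.16 at 24M (edgeR, adjusted p = 0.208) and 0.34 ± 0.17 at 29M (adjusted p = 0.322), so neither passed. Without single-end 3M replicate 4 the first was -0.20, and without paired-end 3M replicate 3 the second was 0.19.

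Fosl2 (ENSMUSG00000029135, chromosome 5, 32135801-32157842), the FOS-related antigen FRA2, held 71.1, 62.7, 91.7, 61.6 and 58 CPM at single-end 3M and 56.1, 66 and 68.5 CPM (lowest, median and highest) at 24M. The paired-end libraries held 62.1, 51.4 and 57.5 CPM at 3M and 53.3, 55.1 and 62.7 CPM at 29M. Both ages overlapped their 3M group, with log2 fold changes of -0.10 (95% interval -0.34 to 0.14) and 0.01 (-0.16 to 0.17) and edgeR adjusted p of 0.594 and 0.982. Its single-end direction turned without 3M replicate 3, which held the highest value.

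**Figure D1:**
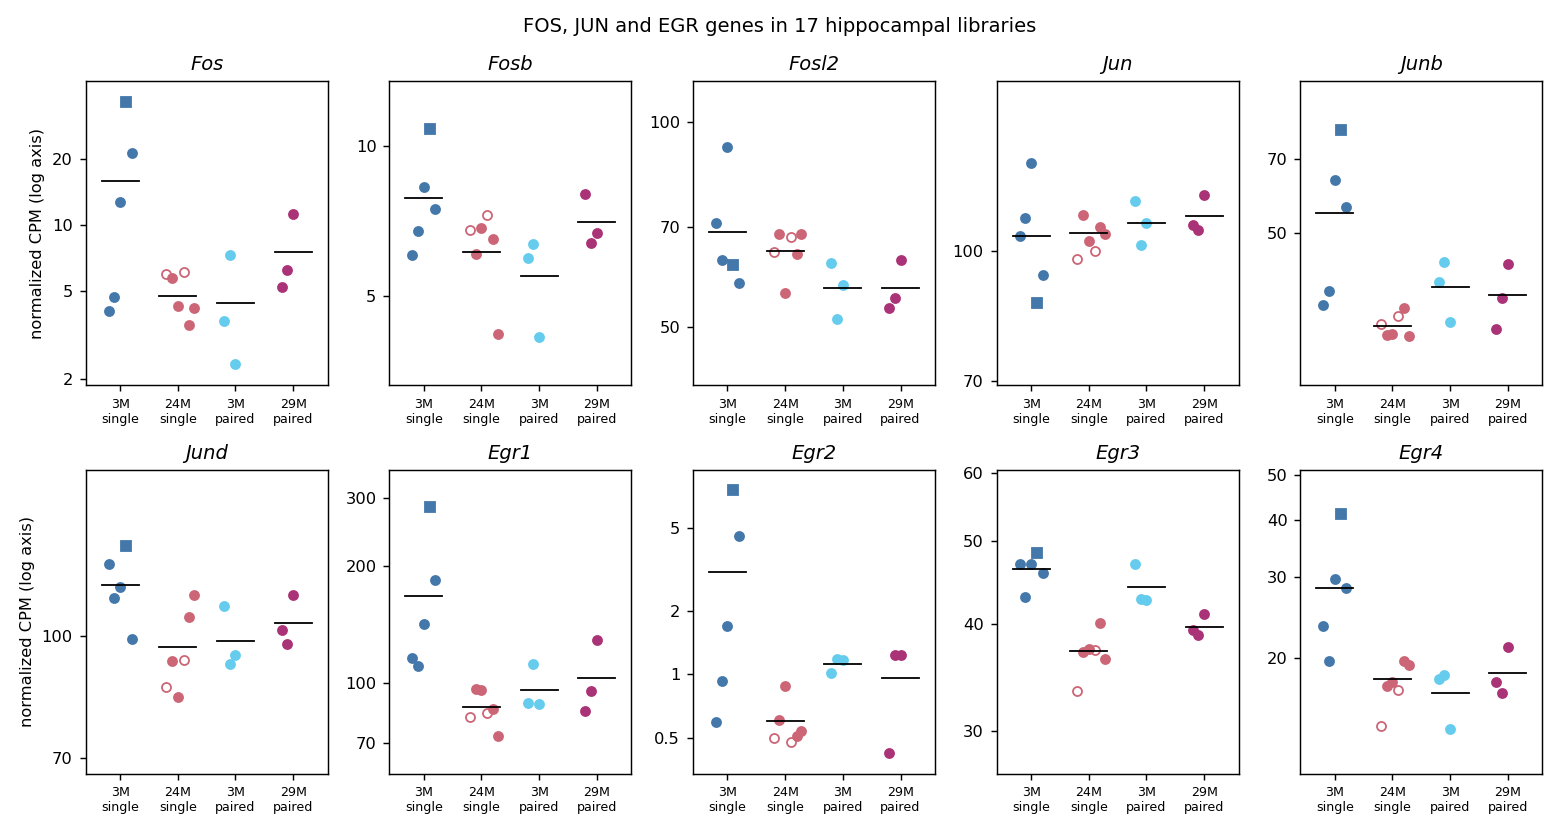
Level of each gene in each library, in CPM on a log axis, by age and library type; lines mark the means over samples, the square marks single-end 3M replicate 4 and open circles the 24M replicates counted as 1 sample. Fos runs from 4.09 to 36.5 CPM among the single-end 3M libraries, while Egr3 lies between 43 and 48.4 there.

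Jun (ENSMUSG00000052684, chromosome 4, 95049034-95052222), the founding partner of FOS in AP-1, was at 104, 109, 127, 86.6 and 93.6 CPM in the single-end 3M libraries and at 98.8, 105 and 110 CPM (lowest, median and highest) at 24M. The paired-end libraries held 115, 102 and 108 CPM at 3M and 107, 106 and 116 CPM at 29M. The groups overlapped at both ages, and the log2 fold changes were 0.01 (95% interval -0.18 to 0.19, edgeR adjusted p = 0.979) and 0.03 (-0.08 to 0.14, adjusted p = 0.833). In replicate 4, where 8 of the 10 members were highest, Jun was lowest of the 5 libraries. Jun shares bases with the antisense gene Junos and Jund with the antisense gene Gm11175, and the counting is not stated to use strand. Reads that fit both genes of such a pair may have been set aside as ambiguous and lost to both, and how they were assigned is not known.

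Junb (ENSMUSG00000052837, chromosome 8, 84974484-84978718) encodes a JUN protein that is induced by activity and is a weaker activator than JUN on many targets. It stood at 36, 38.3, 63.6, 79.6 and 56.2 CPM in the single-end 3M libraries and at 31.3, 31.6 and 35.5 CPM (lowest, median and highest) in the 24M samples. Every 24M sample lay below every single-end 3M sample, although replicates 1 and 2 came within a few CPM. The mean of 54.7 ± 18.2 CPM (n = 5) at 3M and 32.7 ± 1.83 (n = 5) at 24M gave a log2 fold change of -0.74 ± 0.18, called lower (edgeR, adjusted p = 0.0334). In the paired-end libraries Junb held 39.9, 43.7 and 33.3 CPM at 3M and 32.3, 37.2 and 43.3 CPM at 29M, and the overlapping groups gave -0.05 (95% interval -0.29 to 0.18, adjusted p = 0.848). The 3′ end of Junb overlaps Prdx2 on the other strand, and how reads there were assigned is not known either.

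Jund (ENSMUSG00000071076, chromosome 8, 70698949-70700616), the JUN gene that is expressed steadily in most tissues, lay at 124, 112, 115, 130 and 99.1 CPM at single-end 3M and at 83.6, 93 and 113 CPM (lowest, median and highest) at 24M. Values overlapped, with 3 of the 5 3M samples above all 24M samples, and the log2 fold change was -0.26 ± 0.09 (edgeR, adjusted p = 0.0852). The paired-end libraries held 109, 92.2 and 94.6 CPM at 3M and 102, 97.7 and 113 CPM at 29M, and the change was 0.08 on the log2 scale (95% interval -0.06 to 0.22, adjusted p = 0.576).

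Egr1 (ENSMUSG00000038418), also called Zif268, is a much used marker of neuronal activation and is needed for lasting forms of plasticity. The single-end 3M libraries held 116, 110, 141, 284 and 184 CPM and the 24M samples 72.7, 85.7 and 96.3 CPM (lowest, median and highest). No 24M sample reached the lowest 3M sample. From 167 ± 71.6 CPM at 3M (n = 5) to 86.6 ± 9.92 at 24M (n = 5), the log2 fold change was -0.94 ± 0.21 and Egr1 was called lower (edgeR, adjusted p = 0.0272, 95% interval -1.41 to -0.48). Paired-end values were 88.4, 112 and 87.9 CPM at 3M and 84.5, 95.1 and 129 CPM at 29M, which overlapped and gave 0.10 (-0.17 to 0.37, adjusted p = 0.745).

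Egr2 (ENSMUSG00000037868, chromosome 10, 67535475-67542188), which is also the master factor of Schwann cell myelination, had the fewest counts, 13 to 148 per library at single-end 3M and 5 to 17 at 24M. In CPM the 3M libraries held 0.591, 0.935, 1.70, 7.54 and 4.55, and the 24M samples 0.487, 0.537 and 0.876 (lowest, median and highest). In 4 of the 5 3M samples the level was above all 24M samples, and replicate 1 lay within their range. The change of -2.28 ± 0.66 on the log2 scale was the lowest of the 10 and was not called (edgeR, adjusted p = 0.0564, 95% interval -3.69 to -0.87). Paired-end libraries held 1.02, 1.18 and 1.17 CPM at 3M and 0.421, 1.24 and 1.24 CPM at 29M, and the change was -0.22 on the log2 scale (-0.99 to 0.56, adjusted p = 0.81). At these counts the precision is low, and Egr2 was dropped by a filter of at least 1 CPM in every library of a group.

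Egr3 (ENSMUSG00000033730, chromosome 14, 70077203-70082614), which acts downstream of and together with EGR1 in neurons, had the smallest spread among the single-end 3M samples. The single-end 3M libraries held 47, 43, 46.9, 48.4 and 45.9 CPM and the 24M samples 35.3, 37 and 40.1 CPM (lowest, median and highest). All 24M samples lay below all single-end 3M samples, and the fall by 0.31 ± 0.05 on the log2 scale had the smallest adjusted p of the members (edgeR, 0.00887), under the fold change threshold of 0.5. Paired-end libraries held 46.9, 42.8 and 42.6 CPM at 3M and 39.3, 38.8 and 41 CPM at 29M, so the groups did not overlap here either. The log2 fold change of -0.15 ± 0.06 had an unadjusted p of 0.0317 and an adjusted p of 0.235.

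Egr4 (ENSMUSG00000071341, chromosome 6, 85511121-85513589), the member of the family without a binding region for NAB co-repressors, stood at 23.5, 19.7, 29.7, 41.1 and 28.5 CPM in the single-end 3M libraries and at 15.7, 17.8 and 19.7 CPM (lowest, median and highest) in the 24M samples. In 4 of the 5 3M samples the level was above all 24M samples, and replicate 2 lay within their range. Egr4 was called lower at 24M, from 28.5 ± 8.11 to 18 ± 1.62 CPM (n = 5 each), or by -0.66 ± 0.16 on the log2 scale (edgeR, adjusted p = 0.0326). Paired-end values of 18, 18.4 and 14 CPM at 3M and 17.8, 16.8 and 21.1 CPM at 29M overlapped, and the change was 0.14 on the log2 scale (95% interval -0.10 to 0.39, adjusted p = 0.564).

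A gene was called where its adjusted p was 0.05 or less and its log2 fold change 0.5 or more in size. At 24M 3 of the 10 members were called lower (Junb, Egr1 and Egr4). Among all 15683 genes tested 0.638% were called lower, and 1.34% were called higher, with none of the 10 members among them. DESeq2 called 5 lower, with Fos (adjusted p = 0.0368) and Egr2 (adjusted p = 0.0163) added, as did edgeR with the 24M replicates kept apart, and leaving out both of the replicates counted as 1 left none called. By the adjusted p alone 4 members were lower (with Egr3), against 2.37% of all genes. The log2 fold change was below 0 in 9 of 10 members and in 50.8% of all genes, with medians of -0.50 and 0.00. Of the 10 members 3 (Junb, Egr1 and Egr3) had all 24M samples below all 3M samples, as 3.42% of genes did. For the opposite order the counts were 0 of 10 members and 3.15% of genes.

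At 29M no member was called by edgeR or by DESeq2, and 1 of 10 (Egr3) had an unadjusted p under 0.05, against 17.3% of all genes. With no filter on low counts edgeR called Fos higher (adjusted p = 0.000208). Its log2 fold change was then 0.734 against 0.732 in the main fit, while the SE was 0.157 against 0.341. The call thus came with a smaller SE and not with a larger change, the groups overlapped, and DESeq2 gave an adjusted p of 0.845. Of the 15097 genes tested 0.113% were called lower and 1.34% higher. The log2 fold change was below 0 in 3 of 10 members and in 50.6% of genes, with medians of 0.05 and 0.00. Without 29M replicate 3 it was below 0 in 6 of 10 members, with a median of -0.04, and without 29M replicate 1 in 1 of 10, with a median of 0.12. All 29M samples lay below all 3M samples for Egr3 alone, against 10.5% of genes, and above them for Fosb alone, against 11.9%. A p that misses the threshold does not show that levels were alike: the intervals at 29M reach from 0.00 to 1.47 for Fos and from -0.99 to 0.56 for Egr2.

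**Figure D2:**
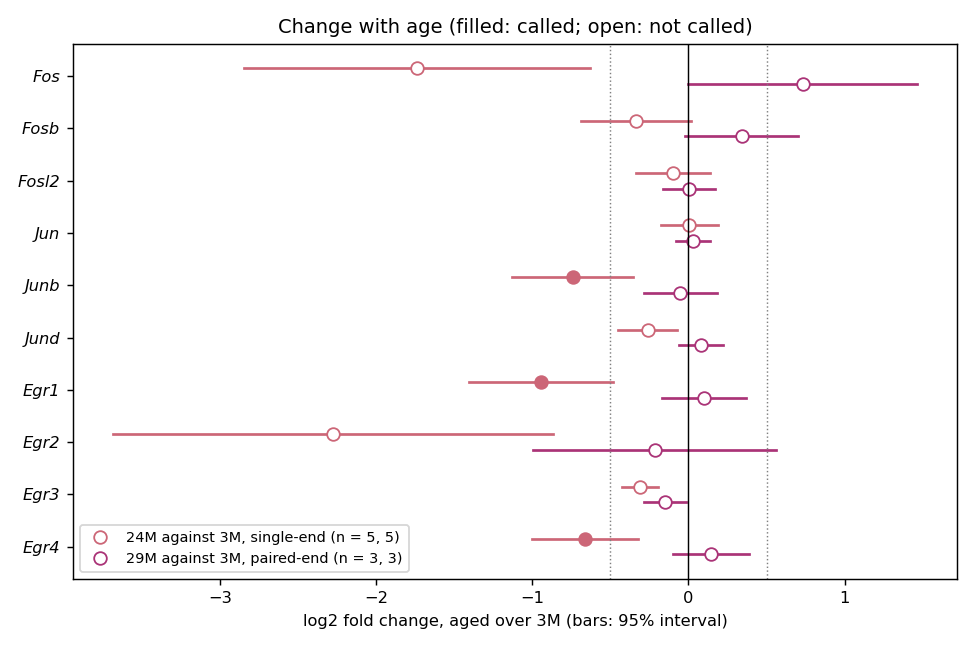
Log2 fold change of each gene, aged over 3M, with its 95% interval, for 24M (n = 5 and 5 samples, single-end) and 29M (n = 3 and 3, paired-end); filled points are called, dotted lines mark the fold change threshold of 0.5. Junb, Egr1 and Egr4 are filled at 24M and no point is filled at 29M.

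The effects at the 2 ages were set against each other in 1 edgeR fit over all 4 groups. The 29M effect minus the 24M effect was 2.48 for Fos (95% interval 0.70 to 4.25, unadjusted p = 0.00894), 1.04 for Egr1 (0.34 to 1.74, unadjusted p = 0.00574) and 0.80 for Egr4 (0.28 to 1.33, unadjusted p = 0.0049), all on the log2 scale. Junb gave 0.69, Fosb 0.68 and Jund 0.34, with unadjusted p of 0.0232, 0.0223 and 0.0227. So 6 of 10 members had an unadjusted p under 0.05, as 10.4% of the 16055 genes did. None of the 10 passed after adjustment, where the smallest adjusted p was 0.392 in edgeR and no member passed in DESeq2, and 0% of all genes passed in either tool. Without single-end 3M replicate 4 the difference was 1.92 for Fos, 0.76 for Egr1 and 0.64 for Egr4, and again none of the 10 passed. The ages are therefore not shown to differ for any member, and age and library type cannot be told apart in this contrast.

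**Figure D3:**
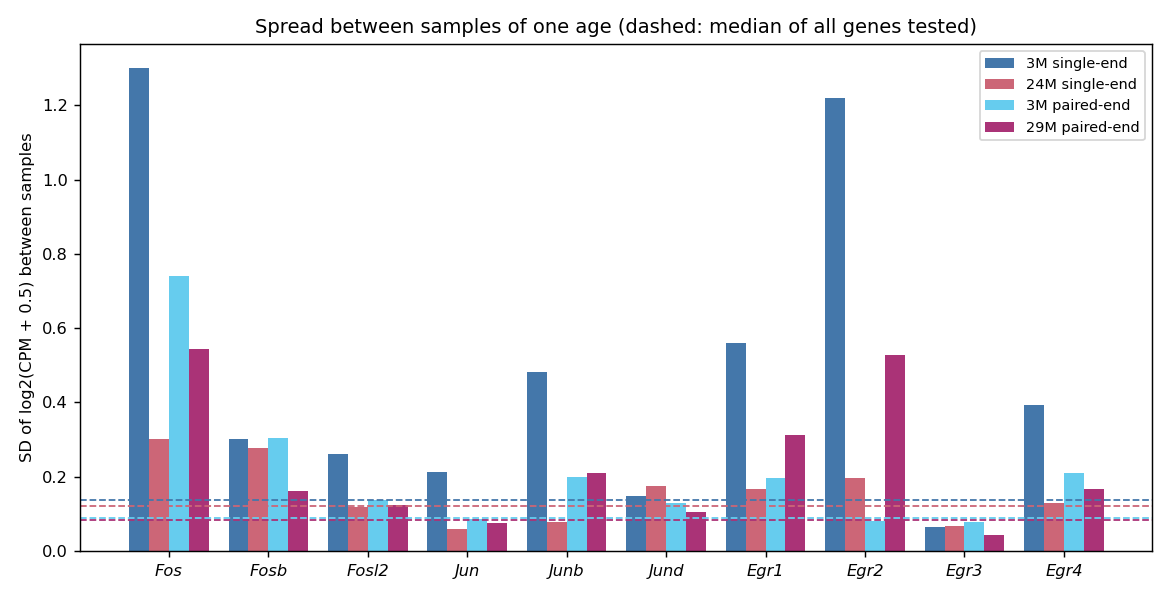
SD of log2(CPM + 0.5) between samples of one group, for each gene and group, with dashed lines at the median over all genes tested in that group. Bars for Fos and Egr2 at single-end 3M reach 1.3 and 1.22, while the median over all genes is 0.137.

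The spread between samples of one age was measured as the SD of log2(CPM + 0.5). Among single-end 3M samples it was 1.3 for Fos, 1.22 for Egr2, 0.561 for Egr1, 0.483 for Junb and 0.392 for Egr4, followed by 0.301 for Fosb, 0.262 for Fosl2, 0.212 for Jun, 0.149 for Jund and 0.0637 for Egr3. Just 6 of the 15683 genes tested had a larger SD than Fos there, 9 a larger one than Egr2 and 233 a larger one than Egr1, whereas 13964 had a larger one than Egr3. The highest value was 12.8 times the lowest for Egr2, 8.91 times for Fos and 1.13 times for Egr3. At 24M the same SD was 0.3 for Fos, 0.195 for Egr2, 0.168 for Egr1 and 0.0782 for Junb. Egr2 lay at 0.487 to 0.876 CPM there, near the 0.5 CPM added before the log, which shrinks its SD. The highest 24M value was 1.8 times the lowest for Egr2 and 1.72 times for Fos. Over the 10 members the median SD was 0.347 at single-end 3M against 0.137 for all genes, 0.148 against 0.122 at 24M, 0.166 against 0.0883 at paired-end 3M and 0.165 against 0.0823 at 29M. More members lay above the median of all genes than below it in each group: 9 of 10, 6 of 10, 7 of 10 and 8 of 10. Without replicate 4 the single-end 3M median of the members was 0.278, with 0.133 for all genes, and Fos and Egr2 kept SDs of 1.08 and 0.964.

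Single libraries held many of the extremes. Replicate 4 of the single-end 3M group was highest for 8 of the 10 members, all but Fosl2 and Jun, and for 21.6% of all genes tested. In the 29M group replicate 3 was highest for 8 members and for 34% of genes. In the paired-end 3M group replicate 2 was highest for 6 members and for 31.8% of genes, and replicate 3 lowest for 6 members and for 32.8% of genes.

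Without single-end 3M replicate 4 all 9 negative log2 fold changes at 24M stayed below 0, and 1 member, Egr1, was called. Egr1 then gave -0.67 (edgeR, adjusted p = 0.0254), Egr4 -0.498, which fell just short of the fold change threshold (adjusted p = 0.0429), and Junb -0.57 (adjusted p = 0.0553). Fos and Egr2 gave -1.18 and -1.63, with adjusted p of 0.123 and 0.106. Egr3 gave -0.29 with an adjusted p of 0.0207, and it stayed at an adjusted p of at most 0.0351 whichever library was left out. Leaving out 24M replicate 2 or 6 left no member called, with adjusted p for Egr1 of 0.0641 and 0.0578, and leaving out 3M replicate 3 or 24M replicate 3 left only Egr1. Leaving out 3M replicate 1 or 2, where Fos and Egr2 were low, gave 5 called members, with Fos at an adjusted p of 0.0407 or 0.0357 and Egr2 at 0.0406 or 0.0429.

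**Figure D4:**
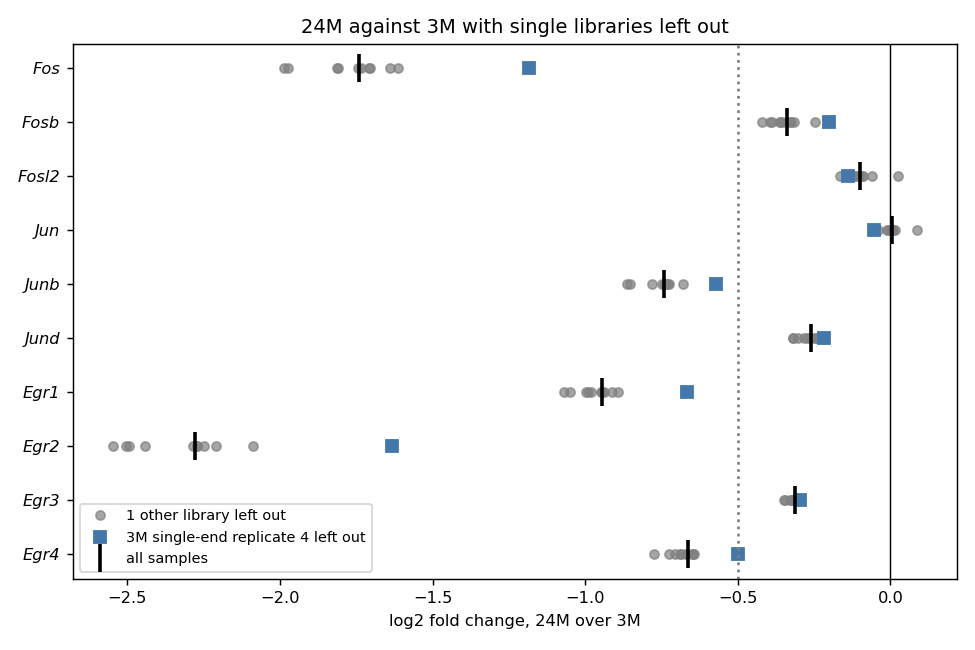
Log2 fold change at 24M with all samples (bars) and with 1 library left out at a time (grey points; the square is the fit without single-end 3M replicate 4), for each gene. Without that library Fos moves from -1.74 to -1.18 and Egr2 from -2.28 to -1.63, and Egr3 moves from -0.31 to -0.29.

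Genes that deviated from their group means most like Fos were found over 16 samples by the root mean square (RMS) difference of the deviations in log2(CPM + 0.5), where the deviations of Fos itself had an RMS of 0.742. Among the 14520 genes compared, Arc, which encodes a dendritic protein of plasticity, came first (RMS difference 0.302), followed by the member Egr2 (0.379), the transcription factor gene Npas4 (0.417), the phosphatase gene Dusp1 (0.445), the small GTPase gene Arl4d (0.446), the member Egr1 (0.473) and the nuclear receptor gene Nr4a1 (0.481). Junb ranked 11th (0.515), Egr4 18th (0.578) and Fosb 68th (0.621), whereas Jun ranked 12689th (0.801). For Egr1, with an RMS of 0.32, the nearest were Nr4a1 (0.118), Dusp6 (0.163), Dusp1 (0.163), the kinase gene Sik1 (0.167) and Ccn1 (0.168), with Junb 7th (0.175) and Egr4 11th (0.192). Egr2 ranked 12024th (0.383) and Fos 14085th (0.473), both farther from Egr1 than a gene with no deviations would be. The measure counts the size of deviations as well as their direction. A gene of small deviations scores close to the RMS of the query itself, so ranks far down the order carry little. The labels name no batch of preparation or sequencing, and the single-end 3M samples weigh most because their deviations are the largest.

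**Figure D5:**
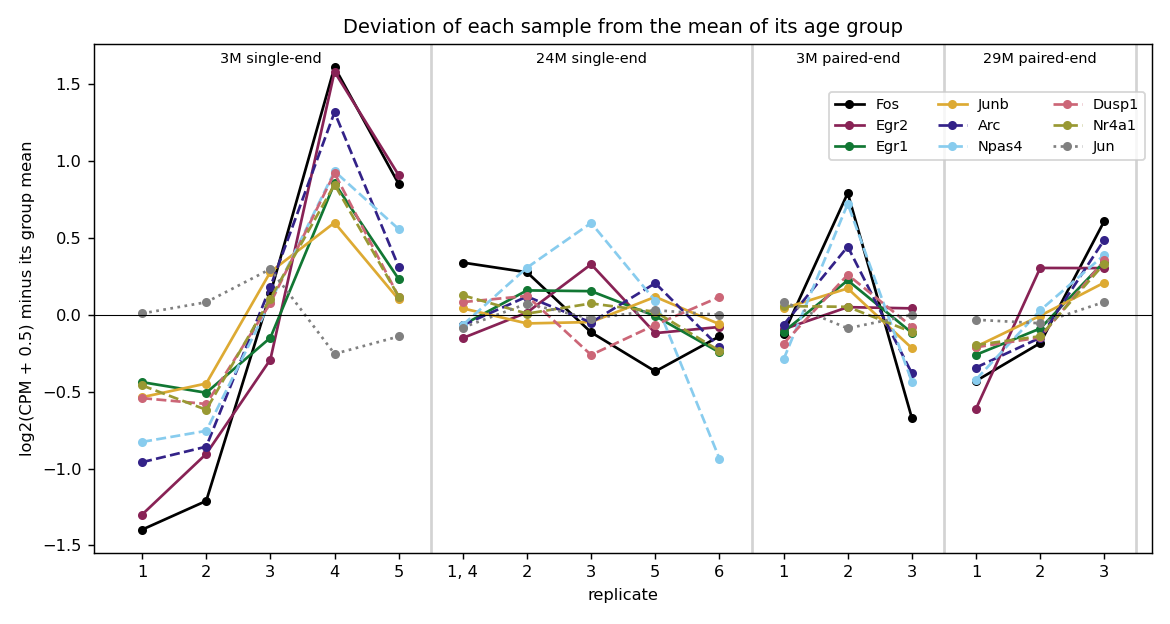
Deviation of log2(CPM + 0.5) from the group mean in each of 16 samples (the 24M pair as 1), for 5 members (solid, Jun dotted) and 4 genes near Fos or Egr1 (dashed); lines join the points of a gene within a group and the order of replicates has no meaning. In single-end 3M replicate 4 Arc lies 1.32 above its mean and Jun 0.253 below.

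Further genes of the pathway were counted from lists. Other AP-1 genes (Fosl1, Jdp2 and genes of the BATF, MAF and ATF families) gave 0 called of 8 tested at 24M and 0 of 7 at 29M, with median log2 fold changes of 0.12 and 0.20. The EGR co-repressor genes Nab1 and Nab2, which EGR proteins recruit and also induce, were not called: Nab1 gave 0.23 at 24M (edgeR, adjusted p = 0.116) and 0.09 at 29M (adjusted p = 0.574), and Nab2 -0.23 (0.166) and 0.10 (0.676). Of 17 SRF and CREB factor genes, which act upstream, 0 were called at either age, and Srf itself gave -0.13 (adjusted p = 0.188) and -0.01 (0.963). The 17 genes of the MAP kinase cascade, the signal that activates them, also had 0 called at either age. The feedback inhibitors (dual-specificity phosphatases, Sprouty, Spred and Zfp36 genes), had 0 of 13 called at 24M and 0 of 12 at 29M. DESeq2 called none in these 5 lists at either age. By the edgeR adjusted p alone, under the fold change threshold, Elk1 (-0.26, adjusted p = 0.0292) and Mef2a (0.31, adjusted p = 0.0357) passed at 24M. Mapk3 (0.16, adjusted p = 0.0382) passed so at 29M. Of all genes 371 were lower and 504 higher by this rule at 24M, of 15683 tested, and 100 and 351 at 29M, of 15097. Unadjusted p under 0.05 at 24M were seen for 2 other AP-1 genes, 2 co-repressors, 5 SRF and CREB factors, 3 cascade genes and 4 feedback inhibitors, and at 29M for 2, 0, 6, 3 and 1, where 26.1% of all genes tested had one at 24M and 17.3% at 29M. Without single-end 3M replicate 4 these 5 lists also had 0 called at 24M.

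Of 31 other genes induced by neuronal activity, 5 were called lower at 24M and 0 higher, and the median change was -0.26 on the log2 scale. These were Arc (-1.27, edgeR adjusted p = 0.0487), Ier2 (-1.06, adjusted p = 0.0358), Ier5 (-0.53, adjusted p = 0.0113), Btg2 (-0.53, adjusted p = 0.0406) and Nptx2 (-0.50, adjusted p = 0.0185), the last chosen after its value was seen. DESeq2 also called 5 lower, and without single-end 3M replicate 4 edgeR called 0, with a median of -0.15. An unadjusted p under 0.05 was seen for 13 of the 31 at 24M (12 lower and 1 higher), against 26.1% of all genes, and for 4 of the 31 at 29M, against 17.3%. At 29M 0 of 31 were called by either tool, and the median was 0.04. Their summed level in the single-end 3M libraries was 1530, 1514, 1802, 2162 and 1733 CPM, and 22 of the 31 were highest in replicate 4, as were 8 of the 10 members.

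Sums of striatum and neocortex markers were also highest in single-end 3M replicate 4. In replicates 1 to 5 of that group the striatum sums were 261.3, 262.1, 231.2, 714 and 294.2 CPM. The neocortex sums were 337.4, 361.1, 327.4, 449.3 and 337 CPM. Fos held 4.09, 4.73, 12.8, 36.5 and 21.4 CPM in these libraries, and Junb 36, 38.3, 63.65, 79.6 and 56.2 CPM. Hippocampal neuron markers were lowest of all libraries in single-end 3M replicate 4, at 1026 CPM with 0 of 8 highest there among the 5 libraries, while 7 of 8 heat shock genes and 6 of 8 oligodendrocyte markers were highest there. In that library the neocortex markers summed to 449.3 CPM, with 6 of 8 highest there, against 327.4 to 361.1 in the other 4 single-end 3M libraries and 263.9 to 302.9 at 24M, 267.1 to 291.3 at paired-end 3M and 259.9 to 284.3 at 29M, with none at 0. At 24M 3 of 8 were called lower, Lamp5 (-0.65, edgeR adjusted p = 0.0487) and Cux2 (-0.53, adjusted p = 0.0305) among them, and 1 without that library. The median change of the neocortex markers was -0.37 on the log2 scale, and it stayed at -0.265 without that library. Of the striatum markers 0 of 10 were called at 24M (DESeq2 called 1 of 8), 4 had an unadjusted p under 0.05 (26.1% of all genes did), and the median change was -0.68 on the log2 scale, or 0.02 without that library. After replicate 4, Fos and Egr2 were highest in replicate 5, at 21.4 and 4.55 CPM. The striatum sum of that library, 294.2 CPM, was the highest of all libraries other than replicate 4, and its neocortex sum was 337 CPM. The part of these tissues in the members' differences was not tested.

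Markers of other cells had few calls. Microglia markers had 2 of 8 called higher at 24M (C1qa 0.55, edgeR adjusted p = 0.00627, and P2ry12 0.52, adjusted p = 0.0342) and 2 at 29M (C1qa 0.69, adjusted p = 8.29e-05, and Tmem119 0.51, adjusted p = 0.0183). At 24M 1 of these 8 was called without single-end 3M replicate 4, and 2 astrocyte markers in place of 1. The microglia sums were 359.5 to 413.7 CPM at single-end 3M and 455.4 to 489.9 at 24M. Of 8 astrocyte markers Gfap was called higher at both ages (0.66, adjusted p = 8.8e-05, and 0.80, adjusted p = 7.42e-07), and of 8 endothelial markers Cldn5 was called lower at 24M (-0.60, adjusted p = 0.0242). The lists of hippocampal neurons, all neurons, choroid plexus, oligodendrocytes and heat shock genes, 8 genes each, had none called at either age by edgeR or DESeq2. At an unadjusted p under 0.05 they had 3, 3, 0, 0 and 1 at 24M and 1, 3, 0, 3 and 5 at 29M, microglia markers had 7 of 8 at both ages, all higher, astrocyte markers 4 and 2 of 8, and endothelial markers 3 and 5 of 8, against 26.1% and 17.3% of all genes. Choroid plexus markers summed to 5102, 4913, 2057, 7911 and 8522 CPM in single-end 3M replicates 1 to 5. Oligodendrocyte markers summed to 5651, 5445, 4253, 7366 and 6606 CPM there, and Fos was at 4.09, 4.73, 12.8, 36.5 and 21.4 CPM. Both marker sums and Fos were thus highest in replicates 4 and 5, and the part of these cells in the members' differences was not tested.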

How the data were processed

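PolyA RNA of mouse hippocampus was measured in 17 libraries. Reads were mapped by the authors to GRCm38.p2 with STAR 2.3.0 and assigned to genes with HTSeq, and raw counts per gene, not normalized, were deposited. The annotation and the strand setting for counting were not given in the sources used here. Summary rows that stand for no gene were removed before library sizes were taken, and 8.59% to 15.87% of reads had no feature. Names and positions came from GENCODE M21 for 36602 identifiers, and 1753 stayed unnamed.

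Counts were tested here with edgeR 4.0.16 (quasi-likelihood, TMM, filterByExpr) in R 4.3.3, and p-values were adjusted by Benjamini-Hochberg over all genes tested. DESeq2 1.42.0 was an alternative. The SE was taken as the size of the log2 fold change over the square root of F. On simulated counts 174 of 200 genes with a log2 change of 1 were recovered for 24M against 3M among 15555 tested (3 false calls). For 29M against 3M it was 179 of 200 among 14948 (12 false calls). These counts were drawn for random genes with the spread that edgeR itself had estimated. The recovery therefore checks the calculation, and it does not show how genes as variable as Fos or Egr2, or 1 deviating library, are handled.

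Among 136 library pairs, 24M replicates 1 and 4 had a ratio of squared difference to counting variance of 0.406, and the lowest other ratio was 1.23, so their rounded mean entered as 1 sample. Samples with the same replicate number did not deviate together (correlations from -0.175 to 0.0965), so the numbers pair nothing.

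The members and lists were chosen with earlier results of these data known. Genes named besides the members are called genes of the pathway lists with Nab1, Nab2 and Srf, up to 4 called genes with the largest change per other list, and the 5 genes nearest to Fos and to Egr1 with a mean of at least 1 CPM. Elk1, Mef2a and Mapk3, which passed by the adjusted p alone, were added after their values were seen. Alternatives were DESeq2, its size factors in edgeR, no filter, a stricter filter, the 24M pair kept apart or left out, all 4 groups in 1 fit, no fold change threshold, the replicate number as a block, other pseudocounts and each library left out. Between 9213474 and 28438296 counts per library limit the precision of genes near 1 CPM. The results of some single genes are left out of the text and are not reported here.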

Additional observations from a re-analysis of the deposited data

How the results depend on the processing

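Depth limits genes near 1 CPM such as Egr2. Members called at 24M numbered 3, and 5 with DESeq2, with no filter, with the 24M libraries kept apart and with all 4 groups in 1 fit; the 2 added were Fos and Egr2 in each of these. With 24M replicates 1 and 4 left out 0 were called, and the fits that left out 1 library each called 0 to 5. With the replicate block, which keeps the 24M libraries apart, 2 were called at 24M, against 5 with those libraries apart and no block, and Fos (adjusted p = 0.131), Egr2 (0.0577) and Egr1 (0.0517) lost their calls; the block changed no count at 29M or for the difference between ages, and the numbers do not pair the samples (the correlations stand under the processing). With no filter 1 member was called at 29M, Fos (edgeR, adjusted p = 0.000208), with an SE of 0.157 against 0.341 in the main fit and nearly the same log2 fold change. The cause of these changes was not tested. The median SD at single-end 3M was 0.335 with a pseudocount of 1 CPM, 0.356 with 0.1 and 0.278 to 0.399 without 1 library, the last chosen after seeing the data.

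Directions turned for log2 fold changes near 0. For Fosl2 the range without 1 library was -0.166 to 0.0255 at 24M, -0.0708 to 0.072 at 29M (-4.08e-06 with all 4 groups in 1 fit) and -0.0237 to 0.161 for the difference. For Jun it was -0.0544 to 0.088 at 24M (-0.00278 with no filter, -0.00829 with the libraries kept apart), -0.0181 to 0.072 at 29M and -0.0649 to 0.078 for the difference (-0.00182 with the pair left out). At 29M it was -0.175 to 0.0451 for Junb, -0.101 to 0.225 for Egr1 and -0.474 to 0.134 for Egr2. The log2 fold changes of the other members kept their sign in every alternative. Egr2 could not be tested under the stricter filter.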
